A study of Homo sapiens with 12 samples.

Results

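The 10 genes described here encode enzymes that add acetyl groups to histones or remove them: the acetyltransferases EP300, CREBBP, KAT2A, KAT2B, KAT5 and KAT8 and the zinc-dependent deacetylases HDAC1, HDAC2, HDAC3 and HDAC4. They were taken by name as enzymes of the acetylation balance beside SIRT1. The rule used no measured value, but earlier results of these data were known when the genes were chosen. All 10 were found among 60649 gene identifiers and passed the filter on low counts that 17576 genes passed. The study measured total RNA by sequencing in MDA-MB-231, an established line of human triple-negative breast cancer, to find genes that depend on SIRT1, an NAD-dependent deacetylase, or on IGF2BP2, an RNA-binding protein. There were 4 groups of 3 libraries. Control cells carried a sham short hairpin RNA (shRNA), SIRT1 KD cells an shRNA to SIRT1, IGF2BP2 KD cells an shRNA to IGF2BP2, and double KD cells both. Every group had been infected with lentivirus packaged in HEK-293T, a line from human embryonic kidney, with Polybrene at 8 µg/mL, and grew in 10% serum under puromycin at 2.0 µg/mL. All cells were therefore drug-selected derivatives of a single line, while the sources used here give neither the hairpin sequences nor the number of separate infections. P-values accordingly measure the spread between these libraries only.

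Acetylation of histone tails by acetyltransferases loosens chromatin and creates docking sites for bromodomain proteins, and deacetylases reverse it. EP300 (p300) and CREBBP (CBP) are paralogous coactivators that acetylate histone H3 at enhancers and promoters. KAT2A (GCN5) and KAT2B (PCAF) are alternative catalytic subunits of the SAGA and ATAC complexes, KAT5 (TIP60) is the catalytic subunit of the NuA4 complex and works in DNA repair, and KAT8 (MOF) acetylates histone H4 in the MSL and NSL complexes. HDAC1 and HDAC2 are paralogous class I deacetylases of the NuRD, SIN3 and CoREST corepressors, HDAC3 is the class I enzyme of the NCoR corepressor complex, and HDAC4 is a class IIa protein that shuttles between cytoplasm and nucleus and represses MEF2 factors. These enzymes use zinc, whereas SIRT1 uses NAD and also deacetylates non-histone proteins, p300 among its reported substrates.

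The targeted transcripts were checked first. SIRT1 lay at 547, 496 and 539 normalised read counts in the SIRT1 KD libraries and at 396, 380 and 436 in the double KD libraries, below its 799, 841 and 863 in control, so that 63.2% and 48.4% of the control mean was left. IGF2BP2 lay at 709, 841 and 736 in IGF2BP2 KD and at 992, 715 and 884 in double KD, against 3045, 3055 and 3127 in control. In SIRT1 KD it was higher than in control, at 3791, 3759 and 3721 (122%, log2 fold change 0.29, adjusted p = 0.0274, called in 6 of 12 fits without 1 library). SIRT1 was at 763, 691 and 730 in IGF2BP2 KD (87.3%, adjusted p = 0.102, and 0.0245 without double KD replicate 2). Assigned reads came to 19522606 to 22509142 in 11 libraries and to 15243152 in double KD replicate 2. That library also had 1.18% mitochondrial reads against 1.99% to 2.57% elsewhere and stands apart from its group. Control replicate 1, which is in every comparison with control, had at least 1 read for 37196 genes, against 27041 to 30018 elsewhere. The cause of this was not tested. Of 8 transcripts listed as typical of the line, VIM lay at 17403 to 28125, SNAI2 at 441 to 695 and SPARC at 35.2 to 76.9. In SIRT1 KD limma called 2 of the 8 higher and 1 lower. VIM rose by 0.42 on the log2 scale and AXL by 0.19 (adjusted p = 0.0486), and SNAI2 fell by 0.50. Of 6 transcripts listed as low in the line, ESR1 was at 7.66 or below, PGR at 0.964 or below and ERBB2 at 2038 to 2550. The epithelial markers CDH1 (-1.75 and -1.81), EPCAM (-0.39 and -0.42) and GATA3 (-0.37 and -0.59), 3 of the 4 of these tested, fell in both SIRT1 KD and double KD. CDH1 was near the floor, at 14.6 ± 2.8 in control, 4.07 ± 2.9 in SIRT1 KD and 5.56 ± 7.1 in double KD. In both comparisons edgeR also called 3 of this list lower, and DESeq2 called 2. Packaging cell markers summed to at most 10.0. Of 5 fibroblast markers, 4 were tested, and in both SIRT1 KD and double KD 1 rose, COL1A1 (0.54 and 1.59), and 2 fell, COL1A2 (-1.23 and -1.80) and PDGFRB (-1.39 and -1.79). Their sum was 709 to 749 in control, 492 to 577 in SIRT1 KD and 674 to 713 in IGF2BP2 KD. In the double KD group it was 696 to 1153, and COL1A1 averaged 700 ± 255 there. DCN was at 0 in every library but control replicate 1, where it was at 4.79. The part of these markers in the results below was not tested, and in these bulk samples less RNA per cell cannot be told apart from fewer cells of a type.

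In control cells the 10 transcripts were ranked on a per-length scale (RPKM, reads per kilobase of exon scaled to library depth, over the GENCODE 29 exons). HDAC1 stood first at 26.2 ± 0.42 RPKM (SD, n = 3, as for every mean below). HDAC3 at 12.6 ± 0.28 and KAT2A at 12.4 ± 0.89 followed with overlapping libraries, then EP300 at 10.8 ± 0.15, HDAC2 at 8.68 ± 0.36 and CREBBP at 7.86 ± 0.30. KAT5 at 5.98 ± 0.33 and KAT2B at 5.58 ± 0.15 again overlapped, and KAT8 at 4.98 ± 0.19 and HDAC4 at 3.34 ± 0.18 were lowest. Other neighbours in this order did not overlap. The levels depend on the annotated exon lengths, which for HDAC2 come to 15461 bases, against 3963 for HDAC1. All other levels below are size-factor-normalised read counts and serve comparisons of a gene between groups.

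**Figure D1:**
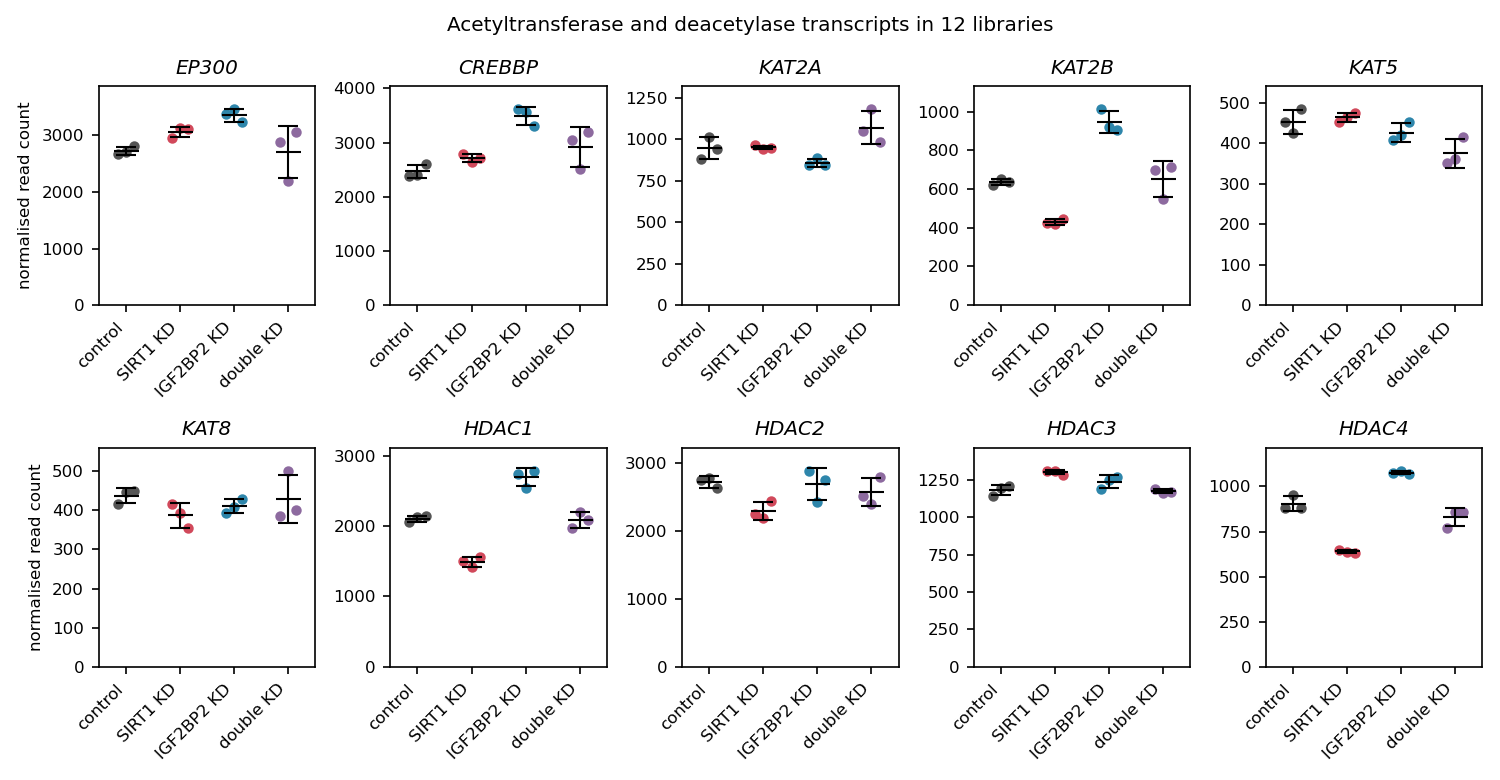
Normalised read counts (vertical axis, from 0) of the 10 transcripts in the 4 groups (horizontal axis). Points are libraries, and bars give the mean and SD of 3. KAT2B, HDAC1 and HDAC4 are lowest in SIRT1 KD and highest in IGF2BP2 KD, and in the double KD panel EP300 spreads from 2193 to 3062.

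Against control, SIRT1 knockdown lowered HDAC1, HDAC4, KAT2B and HDAC2, and 0 of the 10 rose (limma, adjusted p under 0.05 over all genes tested, the rule for every call below). The falls took HDAC1 to 70.8%, HDAC4 to 70.7%, KAT2B to 67.3% and HDAC2 to 84.3% of the control mean. In this comparison 28.6% of all genes were called, 12.9% higher and 15.7% lower, so 4 of 10 lower stands beside that last share. The median log2 fold change of the 10 was -0.08, against -0.0018 over all genes tested. Of the other 6, HDAC3 had an unadjusted p under 0.05, and edgeR and DESeq2 also called 4. The number was 6 without double KD replicate 2, where EP300 and CREBBP were called higher. It was 8 with only these groups in the fit, where EP300, CREBBP and HDAC3 were called higher and KAT8 lower. Those fits called 38.7% of all genes they tested (18.4% higher, 20.4% lower) and 46.7% (22.8% higher, 23.9% lower). The larger counts of members thus stand beside larger shares. The HDAC2 call was lost in some fits without 1 library, given with that gene below.

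IGF2BP2 knockdown raised 5 of the 10, and 0 were lower by limma, edgeR or DESeq2 or at an unadjusted p under 0.05. CREBBP, KAT2B, HDAC1, EP300 and HDAC4 rose, to 142%, 148%, 128%, 123% and 119% of the control mean. Over all genes 16.3% were called, 6.86% higher and 9.39% lower, and the 5 of 10 higher stand beside the 6.86%. The same 5 were called without double KD replicate 2 and with only these groups in the fit. There they stand beside larger shares of genes called higher, 12.6% and 14%. When single libraries were left out, members called ranged from 3 to 5. The calls lost were those of EP300 and HDAC4, given with each gene below. The median of the 10 was 0.16 on the log2 scale, against -0.0037 over all genes. KAT2A, KAT5, KAT8, HDAC2 and HDAC3 were not called, with log2 fold changes from -0.14 to 0.06. The comparison shares its 3 control libraries with the others against control.

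With both shRNAs most of these transcripts lay near control. Of the 10, CREBBP rose and KAT5 fell by limma, edgeR and DESeq2, while 34.2% of all genes were called, 16.7% higher and 17.5% lower. Both calls were lost with only these groups in the fit, which left 0 of 10. That fit called 26.7% of all genes it tested, 12.5% higher and 14.2% lower. The calls were also lost in fits without 1 library that are given with each gene below. The median of the 10 was -0.02, against 0.0057 over all genes, and the median size of a change regardless of sign was 0.06, against 0.25. KAT2B, HDAC1 and HDAC4 were at 103%, 99.3% and 91.7% of the control mean.

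Double KD cells were also set against each single knockdown. Against SIRT1 KD cells, double KD cells had more KAT2B, HDAC1 and HDAC4 and less KAT5 (22.6% of all genes were called, 11.9% higher and 10.7% lower). Against IGF2BP2 KD cells they had less KAT2B, HDAC4, HDAC1, EP300 and CREBBP and more KAT2A (31.6% called, 16.4% higher and 15.2% lower). Medians of the 10 were 0.15 and -0.23, against 0.016 and 0.0063 over all genes. With only the groups compared in the fit, KAT5 was not called against SIRT1 KD (adjusted p = 0.0668), nor EP300 (adjusted p = 0.07) and CREBBP (adjusted p = 0.0851) against IGF2BP2 KD. These comparisons share the double KD libraries.

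The interaction asks whether the double KD departs from the sum of the single changes, and a negative value means that it lies below that sum. The SIRT1 transcript was itself reduced further when both shRNAs were present. Its log2 fold change for double KD against SIRT1 KD was -0.38 (adjusted p = 0.00157), called in all 12 fits without 1 library. The part of this deeper loss of SIRT1 in the interaction was not tested. By limma 0 of the 10 were called, with 4 (EP300, CREBBP, KAT2A and HDAC3) at an unadjusted p under 0.05. Over all genes 2.86% were called, 1.7% higher and 1.16% lower. Without double KD replicate 2 limma called 2 of the 10 and 9.74% of all genes. EP300 and CREBBP were also called by limma without double KD replicate 1 or 3, and fits without 1 library called 116 to 1765 genes. On recovered reads edgeR called 1 of the 10 (EP300) and DESeq2 called EP300 and CREBBP. Over all genes edgeR called 566 and DESeq2 926, against 503 in the main fit. The median of the 10 was 0.08, against 0.018 over all genes.

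**Figure D2:**
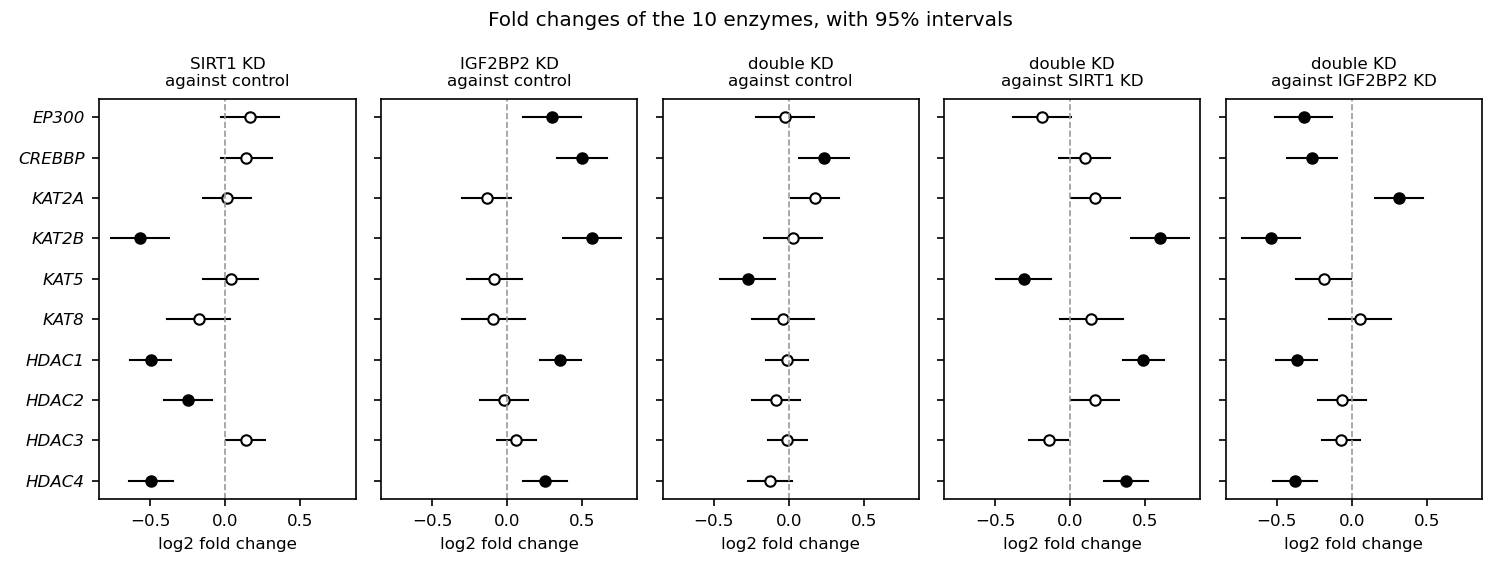
Log2 fold changes (horizontal axis) of the 10 transcripts (rows) in 5 comparisons (panels), with 95% intervals. Filled points passed an adjusted p of 0.05 by limma. KAT2B, HDAC1 and HDAC4 lie left of 0 in SIRT1 KD, right of 0 in IGF2BP2 KD and, with intervals that cross 0, near 0 in double KD against control.

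EP300 (ENSG00000100393.14, chromosome 22, 41091786 to 41180079, plus strand) lay at 2675, 2704 and 2810 normalised counts in control and 2950, 3122 and 3110 in SIRT1 KD. It lay at 3383, 3458 and 3234 in IGF2BP2 KD and 2886, 2193 and 3062 in double KD. Each single knockdown group lay wholly above control, and double KD replicate 2 was the lowest of the 12 libraries. In IGF2BP2 KD the log2 fold change was 0.30 (95% interval 0.11 to 0.49, adjusted p = 0.0319), a call that was lost when any 1 control or IGF2BP2 KD library was left out (adjusted p = 0.0616 to 0.104). In SIRT1 KD it was 0.16 (adjusted p = 0.2), and 0.01 was the adjusted p without double KD replicate 2, which is not in the comparison but widens the shared error. Double KD lay 0.32 below IGF2BP2 KD on the log2 scale (log2 fold change -0.32, adjusted p = 0.0115), and -0.18 without double KD replicate 2, still called (adjusted p = 0.0156). Against SIRT1 KD it was -0.19 and not called (adjusted p = 0.156), with -0.28 and a call without double KD replicate 3 (adjusted p = 0.0332). The interaction was -0.49 (95% interval -0.76 to -0.22, adjusted p = 0.0502). It was -0.34 with an adjusted p of 0.00298 without double KD replicate 2, and called too without double KD replicate 1 (-0.54, adjusted p = 0.0246) or 3 (-0.58, adjusted p = 0.0174).

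CREBBP (ENSG00000005339.15, chromosome 16, 3725054 to 3880726, minus strand) rose in IGF2BP2 KD to levels above every other group. Its counts were 2386, 2406 and 2611 in control and 2798, 2637 and 2718 in SIRT1 KD. They were 3612, 3557 and 3309 in IGF2BP2 KD and 3056, 2507 and 3197 in double KD. Every IGF2BP2 KD library exceeded all others, and double KD overlapped control through replicate 2. The rise in IGF2BP2 KD was 0.50 (SE 0.0798, adjusted p = 2.43e-04) and was called in all 12 fits without 1 library and all 8 other alternatives. In SIRT1 KD the value was 0.14 (adjusted p = 0.213, and 0.0345 without double KD replicate 2). Double KD exceeded control by 0.24 (adjusted p = 0.0283), a call lost without control replicate 1 (0.21, adjusted p = 0.107) or 2 (0.22, 0.0952) and without double KD replicate 1 (0.20, 0.0832) or 3 (0.17, 0.139). Double KD was below IGF2BP2 KD (-0.27, adjusted p = 0.0163), a call lost without IGF2BP2 KD replicate 1 (-0.24, adjusted p = 0.066) or 2 (-0.25, adjusted p = 0.0532), and it was -0.16 without double KD replicate 2 (adjusted p = 0.0342). Against SIRT1 KD it was 0.10 (adjusted p = 0.437), and 0.20 with a call without double KD replicate 2 (adjusted p = 0.00854). The interaction was -0.41 (adjusted p = 0.0601). Without double KD replicate 1, 2 or 3 it was -0.44, -0.30 and -0.47, called each time (adjusted p = 0.033, 0.0116 and 0.0281).

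KAT2A (ENSG00000108773.11, chromosome 17, 42113108 to 42121358, minus strand) was called in neither single knockdown. It lay at 882, 1015 and 939 in control, 963, 941 and 946 in SIRT1 KD, 843, 887 and 846 in IGF2BP2 KD and 1049, 1179 and 983 in double KD. Control overlapped each of the other groups, while every double KD library exceeded every library of the single knockdowns. The log2 fold change was 0.01 in SIRT1 KD (95% interval -0.15 to 0.17), -0.14 in IGF2BP2 KD (-0.30 to 0.03) and 0.18 in double KD (0.02 to 0.34, adjusted p = 0.0865), none of them called. Without double KD replicate 3 the last value was 0.24 and called (adjusted p = 0.0335). Double KD exceeded IGF2BP2 KD by 0.31 (adjusted p = 0.00426), in all 12 fits without 1 library and all 8 other alternatives.

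KAT2B (ENSG00000114166.8, chromosome 3, 20040023 to 20154404, plus strand), the alternative to KAT2A in the same complexes, moved in opposite directions in the single knockdowns. Its counts were 621, 653 and 638 in control and 423, 420 and 445 in SIRT1 KD. They were 1012, 919 and 906 in IGF2BP2 KD and 701, 548 and 714 in double KD. The single knockdown groups lay apart from control and from each other, and double KD straddled control with replicate 2 below it. KAT2B fell by 0.57 in SIRT1 KD (log2 fold change -0.57, SE 0.0921, adjusted p = 1.24e-04) and rose by 0.57 in IGF2BP2 KD (adjusted p = 2.89e-04). In double KD the log2 fold change from control was 0.03 (95% interval -0.17 to 0.22), from SIRT1 KD 0.60 (adjusted p = 1.26e-04) and from IGF2BP2 KD -0.54 (adjusted p = 1.95e-04). The 4 calls held in all 12 fits without 1 library and all 8 other alternatives. The interaction was 0.03 (95% interval -0.24 to 0.30, adjusted p = 0.937).

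KAT5 (ENSG00000172977.13, chromosome 11, 65711996 to 65719604, plus strand) was lowest in double KD. It lay at 451, 424 and 483 in control, 451, 465 and 474 in SIRT1 KD, 407, 421 and 451 in IGF2BP2 KD and 350, 360 and 415 in double KD. Only double KD lay wholly below control. The log2 fold change was -0.27 against control (adjusted p = 0.0205) and -0.31 against SIRT1 KD (adjusted p = 0.0156), and against IGF2BP2 KD it was -0.19 and not called (adjusted p = 0.114, and -0.26 with 0.0352 without double KD replicate 3). The call against control was lost without control replicate 1 (-0.28, adjusted p = 0.0586) or 3 (-0.23, 0.11) and without double KD replicate 1 (-0.23, 0.0713). The other call failed when SIRT1 KD replicate 2 (-0.31, adjusted p = 0.0519) or 3 (-0.29, 0.065) was left out, or double KD replicate 1 (-0.26, 0.0507). Without the filter on low counts neither was called (adjusted p = 0.0981 and 0.073). KAT5 overlaps RNASEH2C, a subunit gene of ribonuclease H2 on the opposite strand, which averaged 974 counts over the 12 libraries against 429 for KAT5. RNASEH2C rose in double KD by 0.45 (limma, adjusted p = 0.00951), from 878 ± 41.6 in control to 1229 ± 329, with a wide spread in double KD. The sources used here do not give whether counting used strand, and reads of the overlap cannot be assigned with certainty.

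KAT8 (ENSG00000103510.20, chromosome 16, 31115754 to 31131393, plus strand) was called in 0 of the 6 comparisons by limma, and in none was the unadjusted p under 0.05. Its counts were 416, 446 and 451 in control, 416, 393 and 354 in SIRT1 KD, 393, 410 and 428 in IGF2BP2 KD and 387, 501 and 400 in double KD. All groups overlapped or met the range of control. The log2 fold changes from control were -0.18 (95% interval -0.39 to 0.03), -0.09 (-0.30 to 0.12) and -0.04 (-0.25 to 0.17) in SIRT1 KD, IGF2BP2 KD and double KD. With only SIRT1 KD and control in the fit the first was called (adjusted p = 0.0335).

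HDAC1 (ENSG00000116478.12, chromosome 1, 32292086 to 32333635, plus strand) had the smallest adjusted p of the 10 against control. It lay at 2051, 2121 and 2135 counts in control and 1499, 1413 and 1554 in SIRT1 KD. It lay at 2746, 2545 and 2782 in IGF2BP2 KD and 1973, 2196 and 2092 in double KD. The single knockdown groups did not overlap control or each other, and double KD bracketed control. HDAC1 fell by 0.50 in SIRT1 KD (log2 fold change -0.50, SE 0.0654, adjusted p = 1.32e-05) and rose by 0.35 in IGF2BP2 KD (adjusted p = 9.05e-04). In double KD it was -0.01 from control (95% interval -0.15 to 0.13), 0.49 above SIRT1 KD (adjusted p = 3.0e-05) and below IGF2BP2 KD by a log2 fold change of -0.37 (adjusted p = 3.0e-04). All 4 calls held in every one of the 12 fits without 1 library and the 8 other alternatives. The interaction was 0.13 (95% interval -0.06 to 0.33, adjusted p = 0.487).

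Sequences are shown for HDAC1 and KAT2B because their transcripts fell in SIRT1 KD and theirs are the 2 of 10 3′ UTRs that hold CTCAGAT or TCAGATA. These 7-mers had been picked on these same libraries, from transcripts lower in SIRT1 KD, so a match is no independent support. The sites are from GENCODE 29 transcripts on the plus strand, 5′ to 3′, with the 7-mer in capitals. The capitals lie at chr3:20152682-20152688 in exon 18 of 18 of KAT2B and at chr1:32333101-32333107 in exon 14 of 14 of HDAC1.
KAT2B site: cttttagctttTCAGATAtgtatttaaat
HDAC1 site: ttccccaacccCTCAGATtttatattttc

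Of 13130 genes searched on the transcript strand 20.2% hold at least 1 of them, 13.3% CTCAGAT and 11.5% TCAGATA, which overlap by 6 bases, so 2 of 10 is near the background. HDAC4, at 70.7% of control in SIRT1 KD, holds neither 7-mer in its 3′ UTR of 4929 bases, nor does HDAC2 in 8030 bases. EP300, CREBBP, KAT2A, KAT5, KAT8 and HDAC3 hold neither in 423 to 2664 bases.

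Of the 10 genes, 9 were found in the RefSeq promoter table (GRCh38.p14), and the 250 bases before the start of HDAC1 are printed because its transcript gave the smallest adjusted p. The window is chr1:32291833-32292082, plus strand, 5′ to 3′, with matches to searched motifs in capitals. Both strands were searched for the GC box GGGCGG, the CCAAT box CCAAT, the cAMP response element TGACGTCA and its half-site TGACG, the E-box CACGTG, the TATA element TATAAA and the ETS core CCGGAAG. The half-site TGACG lies within TGACGTCA, and neighbouring GC boxes may share a base.
HDAC1 upstream: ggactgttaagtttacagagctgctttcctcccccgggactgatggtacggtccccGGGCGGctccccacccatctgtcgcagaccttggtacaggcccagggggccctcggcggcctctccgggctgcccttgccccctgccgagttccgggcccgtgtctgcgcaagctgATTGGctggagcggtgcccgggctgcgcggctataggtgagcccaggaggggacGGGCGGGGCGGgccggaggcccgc

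This window holds 3 GC boxes and 1 CCAAT box (as ATTGG), with 71.6% G or C and 21 CpG. Of 35116 windows of the same length in the table, 42.6% hold a GC box and 32.0% a CCAAT box, and the medians are 58.0% G or C and 11 CpG. Shares for the other motifs, none of them matched here, are 21.2% for TGACG, 1.65% for TGACGTCA, 6.34% for CACGTG, 10.7% for TATAAA and 8.52% for CCGGAAG. The window of KAT2B, which had a pattern like HDAC1, holds 3 GC boxes (80.8% G or C) and that of HDAC4 none (54.4%). The windows of 5 of the 9 genes (EP300, KAT2B, KAT5, HDAC2 and HDAC4) lie wholly inside the gene as GENCODE 29 draws it. CREBBP has 3 GC boxes and 2 half-sites, KAT5 3 half-sites, 1 E-box and 2 ETS cores, HDAC3 1 GC box and KAT2A 1 half-site, and EP300 and HDAC2 hold no match. A match describes these letters and not a bound factor.

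HDAC2 (ENSG00000196591.12, chromosome 6, 113933028 to 114011308, minus strand), the paralogue of HDAC1, changed less. It lay at 2745, 2786 and 2626 in control, 2246, 2189 and 2441 in SIRT1 KD, 2883, 2423 and 2750 in IGF2BP2 KD and 2518, 2391 and 2797 in double KD. SIRT1 KD lay wholly below control, and the other groups overlapped it. The fall in SIRT1 KD was -0.25 (adjusted p = 0.0206), and it was not called without SIRT1 KD replicate 1 (-0.23, adjusted p = 0.0753) or 2 (-0.22, 0.0935) or control replicate 1 (-0.24, 0.0692) or 2 (-0.23, 0.0805). In IGF2BP2 KD the value was -0.02 (95% interval -0.18 to 0.14). Double KD was 0.16 above SIRT1 KD and not called (adjusted p = 0.142), with 0.21 and a call without double KD replicate 2 (adjusted p = 0.0117). An antisense gene, HDAC2-AS2, averaged 100 counts against 2566 for HDAC2.

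HDAC3 (ENSG00000171720.10, chromosome 5, 141620876 to 141636870, minus strand) was called in 0 of the 6 comparisons by limma, with 3 at an unadjusted p under 0.05. It lay at 1145, 1195 and 1210 in control, 1307, 1309 and 1283 in SIRT1 KD, 1188, 1251 and 1270 in IGF2BP2 KD and 1191, 1165 and 1171 in double KD. The SIRT1 KD libraries lay above all others by a narrow margin. The log2 fold change there was 0.14 (95% interval 0.01 to 0.26, adjusted p = 0.112, and 0.0155 with only these groups in the fit).

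HDAC4 (ENSG00000068024.17, chromosome 2, 239048168 to 239401654, minus strand) was, like HDAC1 and KAT2B, lowest in SIRT1 KD and highest in IGF2BP2 KD. Its counts were 882, 953 and 880 in control and 650, 637 and 632 in SIRT1 KD. They were 1076, 1086 and 1067 in IGF2BP2 KD and 771, 856 and 860 in double KD. No 2 groups overlapped, and the double KD libraries lay between SIRT1 KD and control. HDAC4 fell by 0.50 in SIRT1 KD (log2 fold change -0.50, SE 0.0692, adjusted p = 2.44e-05) and rose by 0.25 in IGF2BP2 KD (adjusted p = 0.0177). The rise was not called without control replicate 1 (0.23, adjusted p = 0.0824) or 3 (0.23, 0.0885), without IGF2BP2 KD replicate 1 (0.25, 0.0553) or 3 (0.26, 0.0579), or without the filter on low counts (0.25, adjusted p = 0.106). In double KD the value was -0.13 against control (95% interval -0.27 to 0.02, adjusted p = 0.178), 0.37 against SIRT1 KD (adjusted p = 7.12e-04) and -0.38 against IGF2BP2 KD (adjusted p = 3.82e-04). The interaction was 0.12 (95% interval -0.08 to 0.33, adjusted p = 0.556).

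The balance within paralogous pairs is given as the log2 ratio of RPKM within a library, with no test. KAT2A over KAT2B was 1.08, 1.22 and 1.14 in control, 1.77, 1.74 and 1.67 in SIRT1 KD and 0.32, 0.53 and 0.48 in IGF2BP2 KD. On the linear scale KAT2A stood 2.21-fold, 3.31-fold and 1.36-fold above KAT2B by group mean, with no overlap between these groups. In double KD the ratio was 1.16, 1.69 and 1.04, and replicate 2 lay within the range of SIRT1 KD. HDAC1 over HDAC2 was 1.54 to 1.67 in control, 1.31 to 1.38 in SIRT1 KD, 1.89 to 2.03 in IGF2BP2 KD, with double KD at 1.55 to 1.84. EP300 over CREBBP was 0.42 to 0.48 in control and 0.39 to 0.55 in SIRT1 KD, and it was lower, without overlap, in IGF2BP2 KD (0.22 to 0.28) and double KD (0.12 to 0.25).

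**Figure D3:**
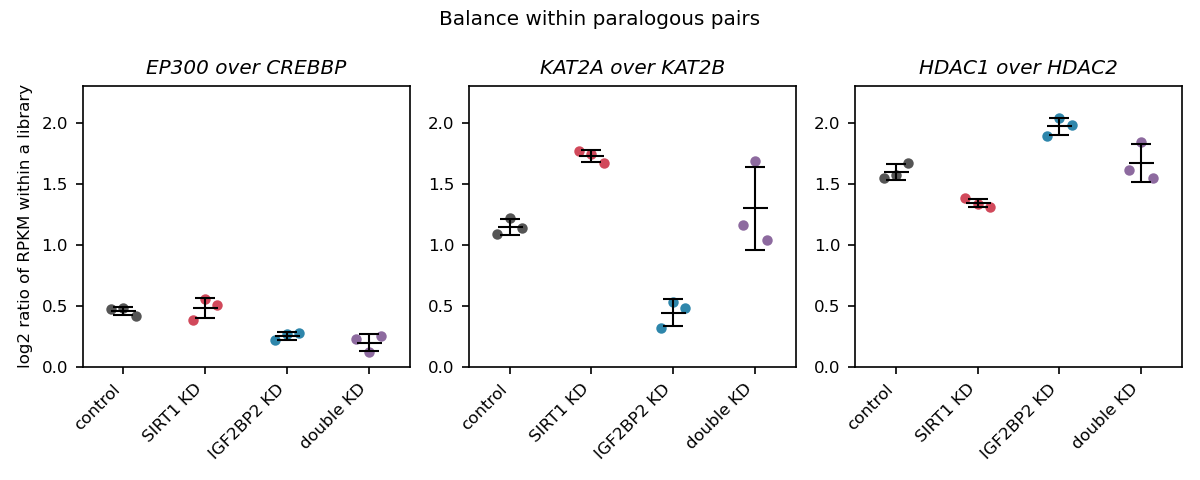
Log2 ratio of RPKM within each library (vertical axis) for 3 paralogous pairs (panels) in the 4 groups (horizontal axis). Points are libraries and bars the mean and SD of 3. KAT2A over KAT2B averages 1.15 in control, 1.73 in SIRT1 KD and 0.44 in IGF2BP2 KD.

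Across the 12 libraries HDAC1 had a Pearson correlation of log2 values of 0.97 with HDAC4 and 0.94 with KAT2B. It was 0.71 with HDAC2, 0.53 with CREBBP, 0.35 with KAT8 and 0.14 with EP300, and -0.30, -0.31 and -0.49 with KAT2A, KAT5 and HDAC3. These points share groups and libraries, so the values describe the likeness of the patterns only. Among 10464 protein-coding genes the 3 most like HDAC1 were PIK3C2B, a lipid kinase (r = 0.990), the iron exporter SLC40A1 (0.989) and IGFBPL1 (0.989). SLC40A1 averaged 208 counts in control, 93.6 in SIRT1 KD, 441 in IGF2BP2 KD and 219 in double KD.

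Genes that work with these enzymes were read from 15 lists of complexes, partners and substrate supply, whose counts of calls by limma stand beside the shares of all genes called above. Counts in a fit without double KD replicate 2, an alternative chosen after the data were seen, follow where either direction moved by more than 1.5 times. That fit called 38.7% of all genes in SIRT1 KD, 27.8% in IGF2BP2 KD and 39% in double KD against control, all above the shares with every library. Among 5 subunits of the NCoR corepressor complex that carries HDAC3, 1 rose and 3 fell in SIRT1 KD (2 and 3 without that library), with a median log2 fold change of -0.19. TBL1XR1, an exchange factor of this complex, went from 6060 ± 157 in control to 4549 ± 90.7 in SIRT1 KD (-0.41, adjusted p = 4.14e-04) and was at 4714 ± 385 in double KD (-0.37, adjusted p = 9.99e-04), where 1 of the 5 rose and 2 fell. In IGF2BP2 KD 0 of 5 were called by limma, edgeR or DESeq2, with 1 at an unadjusted p under 0.05 (1 was called without double KD replicate 2).

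The NuRD and SIN3 complexes carry HDAC1 and HDAC2. Of 12 NuRD subunits 1 rose and 4 fell in SIRT1 KD (3 and 4 without double KD replicate 2), where MTA2, a scaffold subunit, had a log2 fold change of -0.53 (adjusted p = 3.47e-06) and GATAD2A one of 0.42 (adjusted p = 1.87e-04). In IGF2BP2 KD 1 NuRD subunit rose and 1 fell (6 and 2), MTA3 at 0.21 and MTA1 at -0.28. In double KD 3 rose, GATAD2A (0.48) and the methyl-CpG-binding domain protein MBD3 (0.27) among them, and 0 fell by limma, edgeR and DESeq2 (4 higher and 0 lower at an unadjusted p under 0.05, and 2 rose and 3 fell without double KD replicate 2). Of 15 SIN3 subunits 2 rose and 1 fell in SIRT1 KD. The scaffold SIN3A went from 2220 ± 76.5 to 1663 ± 71.1 (-0.42, adjusted p = 1.54e-04) and BRMS1L rose by 0.62. In IGF2BP2 KD 1 rose and 1 fell (3 and 2 without double KD replicate 2), ARID4A at 0.34 and SINHCAF at -0.52. In double KD 0 rose and 2 fell by limma, edgeR and DESeq2 (1 higher at an unadjusted p under 0.05, and 3 and 3 called without double KD replicate 2), SIN3A by 0.42 again and ING1 by 0.37.

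Of 12 CoREST and MiDAC subunits, which also bind HDAC1 and HDAC2, 4 rose and 2 fell in IGF2BP2 KD, with a median of 0.21. MIDEAS, the scaffold of MiDAC, rose by 0.35 (adjusted p = 4.16e-04), and HMG20B, a DNA-binding subunit, fell by 0.54 (adjusted p = 3.04e-05). In SIRT1 KD 1 rose and 2 fell (2 and 3 without double KD replicate 2), with RCOR1, the CoREST scaffold, at -0.48 (adjusted p = 4.86e-05) and RCOR3 at 0.48. In double KD 1 rose and 3 fell (2 and 3), HMG20B by 0.79 and RCOR1 by 0.55.

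Of 10 tested partners of HDAC4 and its class IIa relatives, 1 rose and 2 fell in SIRT1 KD (3 and 2 without double KD replicate 2), 1 rose and 1 fell in IGF2BP2 KD, and 1 rose and 3 fell in double KD. The 14-3-3 protein genes YWHAG and YWHAB, whose products hold phosphorylated class IIa enzymes in the cytoplasm, had log2 fold changes of 0.31 and -0.43 in SIRT1 KD. YWHAG also rose in IGF2BP2 KD (0.37) and double KD (0.62, adjusted p = 2.39e-07). MEF2D, a transcription factor that class IIa enzymes repress, was lower in IGF2BP2 KD (-0.24) and double KD (-0.38).

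Among the remaining zinc-dependent deacetylases, HDAC9 had the order of groups opposite to HDAC4, which is of its class. HDAC9 was at 1523 ± 73.5 in control and 2493 ± 18.2 in SIRT1 KD (0.71, adjusted p = 1.26e-05). It was at 1110 ± 75.2 in IGF2BP2 KD (-0.46, adjusted p = 0.00212) and 1953 ± 310 in double KD (0.35, adjusted p = 0.00706). Of the 7 genes in this list HDAC9 was the 1 called by limma in SIRT1 KD (2 by edgeR and by DESeq2, and 3 without double KD replicate 2, all higher), and 0 fell by any of these or at an unadjusted p under 0.05. In IGF2BP2 KD HDAC8 rose by 0.38 (adjusted p = 0.0472). In double KD HDAC7 rose by 0.30, and the 1 gene that fell was HDAC5 at -0.26, named after its value was seen (2 fell without double KD replicate 2). Of 7 sirtuins SIRT2, a mainly cytoplasmic deacetylase, rose in all 3 comparisons with control, by 0.54, 0.28 and 0.59. Without double KD replicate 2, sirtuins called were 2 higher and 1 lower in SIRT1 KD and 1 and 2 in IGF2BP2 KD. With every library the 1 sirtuin that fell in SIRT1 KD, and the 1 in double KD, was SIRT1 itself.

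Subunits of the acetyltransferase complexes moved in both directions. Of 20 SAGA and ATAC subunits, partners of KAT2A and KAT2B, 4 rose and 4 fell in SIRT1 KD (7 and 5 without double KD replicate 2) and 3 and 4 in double KD (5 and 4). In IGF2BP2 KD 0 rose and 1 fell by limma, edgeR called 2 and 1, and 2 and 4 were called by limma without double KD replicate 2 (2 higher and 3 lower at an unadjusted p under 0.05). ZZZ3, a histone-binding subunit of ATAC, fell in each comparison, by 0.59, 0.22 and 0.86, from 2174 ± 27.9 in control to 1198 ± 90.3 in double KD. TAF5L, a SAGA core subunit, rose by 0.59 in double KD, and DR1 fell by 0.60 in SIRT1 KD.

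Of 16 subunits of the TIP60 complex of KAT5, 2 rose and 3 fell in SIRT1 KD and 1 and 4 in double KD. In IGF2BP2 KD 0 rose and 1 fell by limma, edgeR and DESeq2 (2 higher and 3 lower at an unadjusted p under 0.05, and as many called without double KD replicate 2). MRGBP, of that complex, went from 1478 ± 57.0 in control to 852 ± 20.3 in SIRT1 KD and 868 ± 66.2 in double KD (-0.79 and -0.77). MBTD1, a methyl-lysine reader, had log2 fold changes of 0.62 in SIRT1 KD and -0.31 in IGF2BP2 KD, both called, and BRD8 was at -0.28 in double KD.

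For the MSL and NSL complexes of KAT8, 2 of 10 rose and 1 fell in SIRT1 KD (2 and 2 without double KD replicate 2) and 4 rose and 1 fell in double KD. In IGF2BP2 KD 1 rose and 0 fell by limma and edgeR, 2 and 0 by DESeq2 and at an unadjusted p under 0.05, and 2 rose and 1 fell without double KD replicate 2. PHF20, an NSL subunit that reads methylated lysine, rose by 0.54 in SIRT1 KD and 0.43 in double KD, MCRS1 fell by 0.67 and 0.47, and KANSL1 rose by 0.26 in IGF2BP2 KD. Of 8 BRPF, JADE and ING genes, scaffolds and readers of the KAT6 and KAT7 enzymes, 1 rose and 3 fell in SIRT1 KD (2 and 3), with BRPF3 at -0.40 and JADE1 at -0.31. In IGF2BP2 KD JADE2 rose by 0.42 and JADE3 fell by 0.63. In double KD 0 rose and 2 fell by limma, edgeR and DESeq2 (1 higher at an unadjusted p under 0.05), ING4 at -0.41 and BRPF3 at -0.17.

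Other acetyltransferases, some of which act on tubulin, cohesin or protein N termini and not on histones, gave 1 rise and 4 falls of 17 in SIRT1 KD (4 and 5 without double KD replicate 2). GTF3C4, a subunit of TFIIIC, and ESCO2, a cohesin acetyltransferase of S phase, had log2 fold changes of -0.52 and -1.04. In IGF2BP2 KD 1 rose and 2 fell (3 and 2), with NCOA3, a nuclear receptor coactivator, at 0.29 and NAA50, an N-terminal acetyltransferase, at -0.57. In double KD 3 rose and 5 fell (6 and 5), with NAA60 at 0.59 and ESCO1 at -0.74.

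Acetyl-CoA is the substrate of all 6 acetyltransferases. The list for its supply holds genes that make, use or transport it, not all of them for the nucleus. It gave 1 rise and 5 falls of 13 in SIRT1 KD (3 and 5 without double KD replicate 2). In IGF2BP2 KD it gave 2 and 3 (4 and 4), and in double KD 2 and 6. The medians were -0.10, 0.03 and -0.08. ACSS2, which makes nuclear and cytosolic acetyl-CoA from acetate, lay at 2714 ± 122 in control and 1113 ± 35.7 in SIRT1 KD (-1.29, adjusted p = 9.08e-10). It lay at 2059 ± 97.4 in IGF2BP2 KD (-0.40, adjusted p = 0.00104) and 910 ± 90.6 in double KD (-1.58, adjusted p = 3.42e-11). PDHX, a structural component of pyruvate dehydrogenase, fell by 0.88 in SIRT1 KD. ACSS1, the mitochondrial counterpart of ACSS2, rose by 0.80 in IGF2BP2 KD and was at -0.76 in SIRT1 KD (adjusted p = 2.41e-05). DLAT, the acetyltransferase subunit of pyruvate dehydrogenase, fell by 0.45 in IGF2BP2 KD, and SLC33A1, which carries acetyl-CoA into the endoplasmic reticulum, by 0.85 in double KD.

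Bromodomain and other acetyl-lysine readers, which bind the marks these enzymes write, gave 2 rises and 3 falls of 15 in SIRT1 KD (5 and 6 without double KD replicate 2) and 6 and 2 in double KD. In IGF2BP2 KD 5 rose and 0 fell by limma, edgeR and DESeq2 (6 and 0 at an unadjusted p under 0.05), with a median of 0.09, and 6 rose and 1 fell without double KD replicate 2. ATAD2 and TRIM33 were both at -0.48 in SIRT1 KD. BAZ2A, a subunit of the nucleolar remodelling complex NoRC, rose by 0.40 in IGF2BP2 KD (adjusted p = 7.18e-05) and MLLT1, a YEATS domain reader, by 0.32 (adjusted p = 0.00149). In double KD ATAD2B rose by 0.77 and BRD2 was at -0.36. Of 12 tested partner factors of p300 and CBP, 2 rose and 3 fell in SIRT1 KD (2 and 5 without double KD replicate 2) and 1 and 4 in double KD (2 and 5). In IGF2BP2 KD 0 rose and 1 fell by limma, edgeR, DESeq2 or unadjusted p. STAT3 rose by 0.39 in SIRT1 KD, and HIF1A, whose protein recruits both coactivators in hypoxia, fell by 0.49. ATF1 fell by 0.32 in IGF2BP2 KD and by 0.57 in double KD, and CITED2, a rival of HIF1A for the same domain, fell by 0.54 in double KD.

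**Figure D4:**
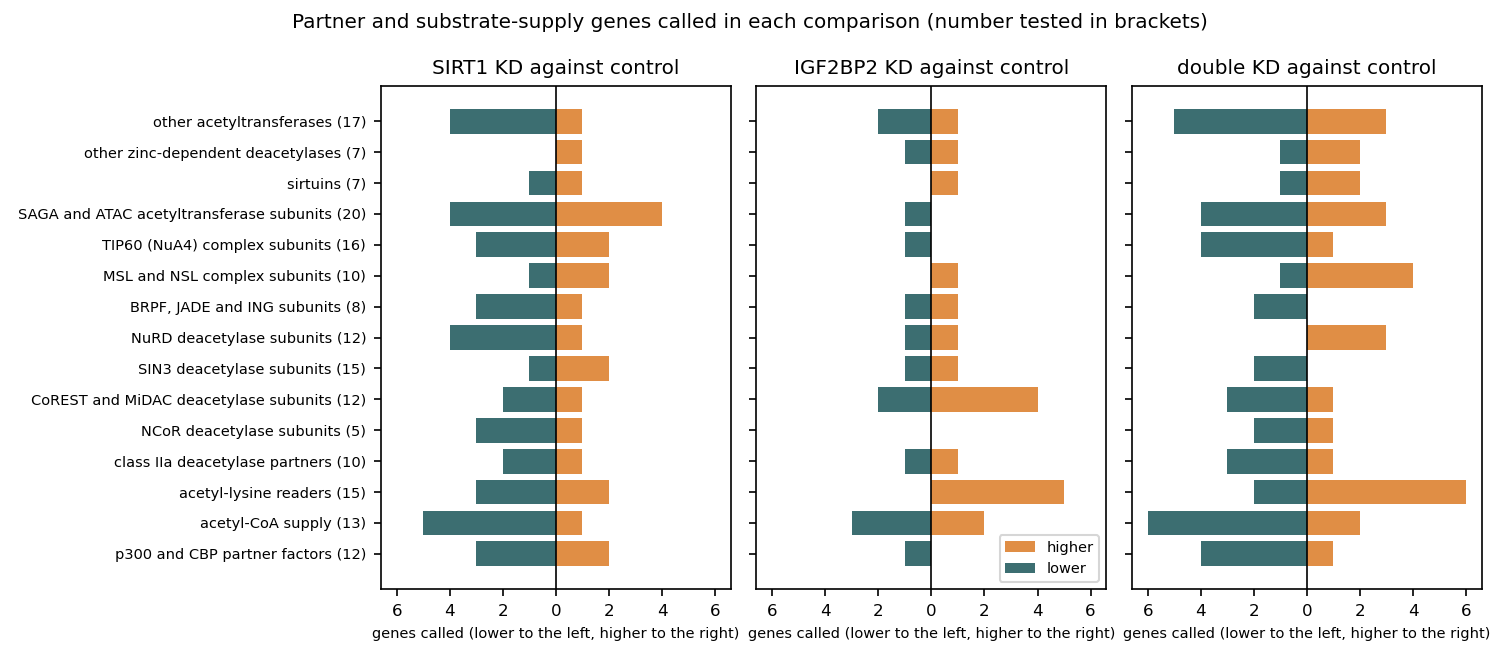
Number of genes called lower (left) and higher (right) by limma in 15 lists (rows, number tested in brackets) for the 3 comparisons with control (panels). Acetyl-lysine readers show 5 genes higher and 0 lower in IGF2BP2 KD, and acetyl-CoA supply 5 lower and 1 higher in SIRT1 KD. Without double KD replicate 2 these were 6 higher and 1 lower, and 5 lower and 3 higher. Over all genes 6.86% were higher and 9.39% lower in IGF2BP2 KD, and 12.9% higher and 15.7% lower in SIRT1 KD, with every library.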

How the data were processed

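Per the labels' protocols, libraries were made from 1 µg of total RNA. CASAVA, STAR and DESeq2 are named in the submitters' processing notes, as is GRCh38.p13. The sources used here give neither the annotation nor the strand setting. The signal analysed is gene counts that the authors divided by a size factor per library and deposited. Reads were recovered by dividing each column by its smallest step, which gave whole numbers for 100% of values in each of 12 columns (tolerance 0.001 reads). The column code read as SIRT1 KD is so by elimination. A deposited table of the authors' log2 ratios to control, which names each group in full, served to check column names. Log2 ratios of each library differed from the column named for it with an SD of at most 0.0040. Against the column of any other library the SD was at least 0.132. The 12 columns of a raw table without column names were not used. Of 60649 identifiers 60507 had a symbol and 58381 were in GENCODE 29.

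The main test was limma 3.58.1 (R 4.3.3) on log2(normalised count + 1), with 4 group means over all 12 libraries, a variance trend and robust moderation. Genes passed edgeR's filterByExpr (minimum count 10 on recovered reads), which left 17576, and were called at a Benjamini-Hochberg adjusted p under 0.05. Adjusted p-values are from this fit unless a tool is named, and the pseudocount understates changes of low genes. Each knockdown was compared with control and double KD with SIRT1 KD and IGF2BP2 KD, and the interaction was tested. Confidence intervals are 95%. Alternatives were TMM scaling, edgeR 4.0.16 and DESeq2 1.42.0 on recovered reads, pseudocounts of 0.5 and 5, no filter, only the groups compared, a replicate block and leaving out each library. On recovered reads edgeR called 5286, 3114 and 6099 genes in SIRT1 KD, IGF2BP2 KD and double KD against control. The fit was tested on simulated data with the same dispersion for all genes and libraries. No simulated library stood apart, as double KD replicate 2 does here (SD of log2 values from its partners 0.478). The simulation therefore does not cover that setting.

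Named genes are the 10 members, the 2 targeted genes, up to 2 called genes with the smallest adjusted p of each list in each comparison with control, and the 3 protein-coding genes at 5 CPM or more most correlated with the member of smallest adjusted p. HDAC5 and a few further values of named genes in other comparisons were added after they were seen. A gene that this rule names is not reported here. The members and the lists were chosen with earlier results of these data known.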

Additional observations from a re-analysis of the deposited data

Results flagged for a closer look

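For 3 of the genes named from the lists the effect of 1 knockdown differed with the presence of the other, by the test of that difference itself (the limma interaction, adjusted over all genes tested, 3 libraries per group). KANSL1, of the NSL complex of KAT8, had an interaction of -0.356 on the log2 scale (adjusted p = 0.0344). CITED2, a partner of p300 and CBP, had one of -0.3622 (adjusted p = 0.0259). ATAD2, a bromodomain protein, had one of 0.4568 (adjusted p = 0.0457). Of the other list genes HAT1 (0.55, adjusted p = 0.0308) and WDR5 (0.43, adjusted p = 0.0372), named after their values were seen, also passed. That makes 5 of 179 list genes tested (2.79%), near the 2.86% of all genes. Of the 10 members 0 passed this limma test in the same fit. The SIRT1 transcript was reduced further with both shRNAs present (double KD against SIRT1 KD, log2 fold change -0.38, adjusted p = 0.00157). The part of this unequal loss of SIRT1 in the interactions was not tested.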

How the results depend on the processing

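No called member changed direction under any alternative run. Outside the fits without 1 library, 451 member values stayed on their side of the threshold, 11 gained a call and 8 lost one. In the fits without 1 library the numbers were 681, 13 and 26, and 14 of the 681, called in neither fit, changed sign. With only the groups compared in the fit, members called were 8 in SIRT1 KD and 0 in double KD against control. Genes called in such fits were 7784 in SIRT1 KD, 5122 in IGF2BP2 KD and 4455 in double KD against control. They were 2251 in double KD against SIRT1 KD and 3640 against IGF2BP2 KD. Without a filter on low counts 1 member was called in double KD against control. For the interaction, members called were 1 with TMM, 1 with edgeR, 2 with DESeq2, 1 with a pseudocount of 5 and 2 without the filter, and DESeq2 called 926 genes. The cause of these shifts was not tested.

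Without 1 library at a time, members called ranged from 3 to 6 in SIRT1 KD, 3 to 5 in IGF2BP2 KD, 0 to 2 in double KD against control, 3 to 6 in double KD against SIRT1 KD, 5 to 7 against IGF2BP2 KD and 0 to 2 for the interaction. Genes called ranged, in the same order, from 3911 to 7017, 1860 to 5028, 4760 to 7070, 2806 to 5132, 4394 to 6451 and 116 to 1765. With the replicate number as a block, members called were 4, 5, 2, 4, 6 and 0, as without it. Same-numbered libraries had correlations of -0.193 to 0.1 in their deviations, and 5 of 12 correlated best with their own number, so the numbers were not taken to pair the libraries.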
